A study of Mus musculus with 2 samples.

Results

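The TREM receptors, their signalling adaptors and the enzymes that act next to them were described in nuclear RNA of mouse macrophages. The 10 genes were taken by name, by a rule that uses no measured value, but with earlier results of these data known. They are the receptors Trem1, Trem2, Trem3 and Treml4 and the adaptors Tyrobp and Hcst. The others are the kinases Syk and Btk, the phospholipase gene Plcg2 and the phosphatase gene Inpp5d. All 10 were found among 55536 annotated genes, of which 22028 are protein-coding, and they have 41 annotated transcripts. The data are total RNA-seq after depletion of ribosomal RNA, made from the nucleoplasm of macrophages that were grown in culture from bone marrow of C57BL/6J mice. Every culture had received 100 ng/ml Lipid A, the part of lipopolysaccharide that Toll-like receptor 4 binds, for 12 h, had been kept without it for 12 h after a wash, and was collected at 0 min of a second stimulation. There is 1 group with biological replicates 1 and 2, which were made from 1 µg and 500 ng of RNA. Both biosamples carry the same donor entry and nothing states that they came from separate animals, so their spread may be technical, and age and sex are not recorded. With no untreated or restimulated group here, levels are given without a comparison between conditions.

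TREM receptors carry a single immunoglobulin-like domain and almost no cytoplasmic tail, and they signal through the adaptor DAP12, which Tyrobp encodes. DAP12 holds an immunoreceptor tyrosine-based activation motif (ITAM), in which paired tyrosines are phosphorylated by Src family kinases and then bind the kinase SYK. SYK leads to phospholipase C gamma, BTK and phosphoinositide 3-kinase, and SHIP1, the product of Inpp5d, removes a phosphate from the lipid that phosphoinositide 3-kinase makes. In macrophages, TREM1 is known to amplify inflammatory responses, whereas TREM2 is known for lipid sensing, phagocytosis and restraint of cytokine production.

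The motif itself can be read in the coding bases of both adaptors, shown because the receptors have no motif of their own. In Tyrobp-201, which codes for 114 residues, the stretch covers codons 92 to 106, and capitals mark the tyrosine codons 92 and 103. This transcript was used because its annotated frame begins with methionine and holds no stop codon. Tyrobp-202, the more abundant transcript in both libraries, did not meet that rule. In Hcst-201, which codes for 79 residues, codons 68 to 79 hold the single tyrosine codon 72, in capitals. DAP10, the product of Hcst, uses this tyrosine to bind phosphoinositide 3-kinase and has no ITAM. Letters are from the GENCODE mouse transcripts, on the coding strand.
Tyrobp: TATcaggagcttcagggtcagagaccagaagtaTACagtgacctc
Hcst: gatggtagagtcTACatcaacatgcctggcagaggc

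Annotated genes held 22907877 expected counts in replicate 1 and 18612405 expected counts in replicate 2. TPM, an abundance corrected for length and for the library total, is the scale of every level below. Protein-coding genes held 27.5% and 29.5% of all TPM. The macrophage label was checked on 10 markers, all at 10 TPM or more in both libraries, with Lyz2 highest at 1368 and 1126 TPM. Of 47 markers of other cell types that marrow cultures could hold, 40 stayed under 1 TPM in both libraries and 13 had no count in either. Of all 22028 protein-coding genes, 11700 were under 1 TPM in both and 33.3% had no count in either. A lack of counts was therefore not particular to these markers. At 1 TPM or more in both libraries were 4 of the 47 (8.51%), against 44.4% of protein-coding genes. The highest of each list were Csf3r for neutrophils (86.7 and 66.6 TPM), Cd22 for B cells (15.8 and 3.79 TPM), Pf4 for platelets (12.5 and 16.7 TPM), Acp5 for osteoclasts (5.98 and 2.47 TPM), Kit for mast cells (0.48 and 1.13 TPM), Zbtb46 for dendritic cells (0.74 in both) and Cd3d for T and NK cells (0 and 0.12 TPM).

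The pathway was unevenly represented in the nucleus. Of the 10 genes, 7 reached 1 TPM in both libraries, against 44.4% of protein-coding genes, and 6 reached 10 TPM in both, against 19.7%. Syk, Tyrobp, Inpp5d and Trem2 formed an upper tier, Plcg2 and Btk a middle one, and Hcst, Treml4, Trem1 and Trem3 lay far lower. The median of log2(TPM + 0.1) over the 10 genes was 4.17 ± 0.11 (SD, n = 2), beside -0.91 ± 0.05 for all protein-coding genes. In bulk RNA, fewer cells that carry a transcript and less of it per cell cannot be told apart.

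**Figure D1:**
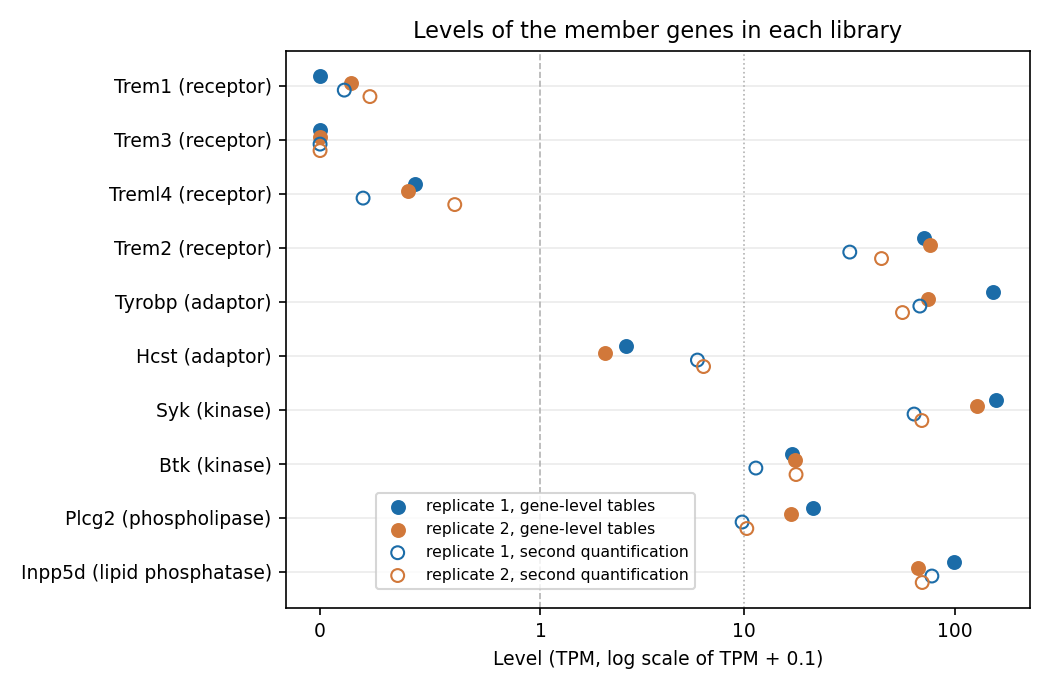
Level of each of the 10 genes in replicates 1 and 2, in TPM on a log scale of TPM + 0.1, ordered from receptors to enzymes. Filled points are the gene-level tables and open points the second quantification, with lines at 1 and 10 TPM. Syk, Tyrobp, Inpp5d and Trem2 lie above 60 TPM in both libraries of the gene-level tables, and Trem1, Trem3 and Treml4 lie under 1 TPM.

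Among the receptors, Trem2 was the only one of the 4 at 1 TPM or more. Replicate 1 had 71.4 TPM and replicate 2 had 76.4 TPM, a mean of 73.9 ± 3.53 TPM (SD, n = 2), from 3737 and 3850 counts. The libraries lay close together in the gene-level tables, and 97.8% of protein-coding genes had a lower mean. Treml4, a receptor known from mouse phagocytes, had 0.18 and 0.16 TPM from 5 and 6 counts. Trem1 was at 0 TPM in replicate 1 and at 0.04 TPM in replicate 2, where it had 3 counts. A count of 0 allows up to 0.0449 TPM in replicate 1, so its libraries cannot be told apart at this depth. Trem3, a mouse relative of Trem1, had no count in either library. With the same limit of 3 counts, this allows up to 0.136 TPM (replicate 1) and 0.157 TPM (replicate 2). In the second quantification, which was made straight from the reads, Trem1 had 0.0301 and 0.0720 TPM, Treml4 0.0597 and 0.333 TPM, and Trem3 0 in both. Trem2 had 31.7 and 44.8 TPM there, further apart than in the gene-level tables. Trem1 is an abundant neutrophil receptor. The 11 neutrophil markers summed to 88.5 and 68.9 TPM, of which all but 1.82 and 2.33 TPM came from Csf3r, and Cxcr2, Camp and Ly6g had no expected count in either library. In the second quantification Cxcr2 had 0.863 and 1.87 TPM and Camp 0.276 and 0.165 TPM.

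All 4 receptor genes lie on the plus strand of mouse chromosome 17 in a cluster of 7 protein-coding genes that spans 134409 bases (mm10). Trem1 (ENSMUSG00000042265.13) occupies chr17:48232768-48246924, Trem3 (ENSMUSG00000041754.5) chr17:48247777-48258841, Treml4 (ENSMUSG00000051682.15) chr17:48264295-48275360 and Trem2 (ENSMUSG00000023992.14) chr17:48346401-48354147. Between Treml4 and Trem2 lie Treml2, a TREM-like receptor gene, at 12.6 and 10 TPM, and B430306N03Rik at 34.9 and 26.4 TPM. Treml1, known from platelets, follows Trem2 and had 0.93 and 1.43 TPM from 27 and 33 counts. The level therefore changed along the cluster: the first 3 genes were under 1 TPM, and the next 3 were at 10 TPM or more in both libraries. Treml2 was at the limit of 10 TPM in replicate 2, and in the second quantification it was under it, at 7.49 and 7.59 TPM.

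**Figure D2:**
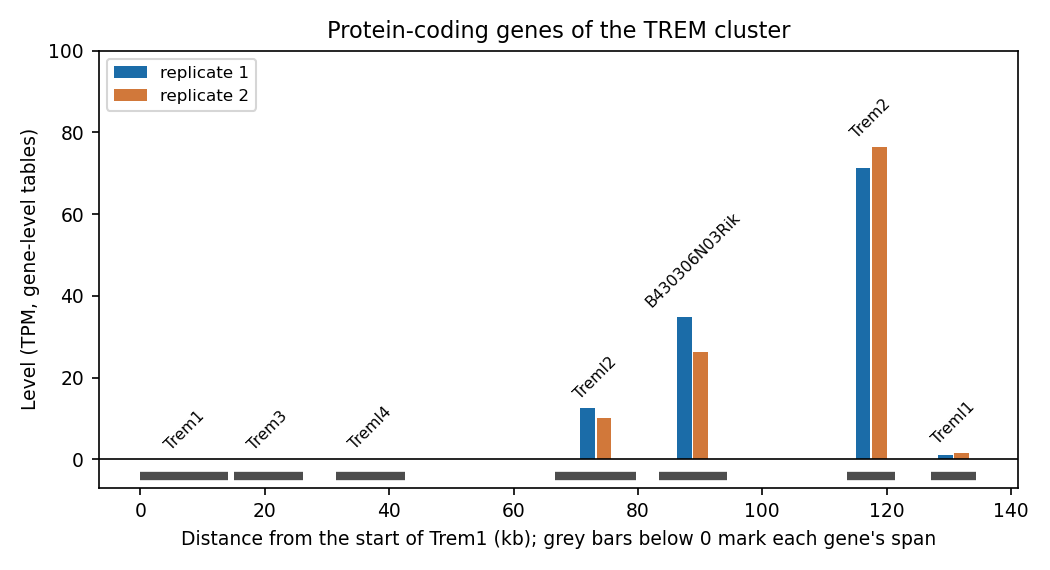
Bars give the TPM (linear axis from 0) of the 7 protein-coding genes of the TREM cluster in replicates 1 and 2, placed by distance in kb from the start of Trem1, with each gene's span drawn below 0. Trem1, Trem3 and Treml4 stay under 1 TPM, and Treml2, B430306N03Rik and Trem2 lie between 10 and 76.4 TPM in both libraries.

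Promoter letters are shown for neighbours of the cluster at opposite ends of this range: Trem2 and, for contrast, Trem1 and Treml4. Each line gives the 250 bases before the RefSeq start (GRCm38.p6, plus strand, 5′ to 3′). Capitals mark the letters GAGGAA, or TTCCTC when read on the other strand, the core bound by PU.1 and other ETS factors.
Trem2, chr17:48346151-48346400: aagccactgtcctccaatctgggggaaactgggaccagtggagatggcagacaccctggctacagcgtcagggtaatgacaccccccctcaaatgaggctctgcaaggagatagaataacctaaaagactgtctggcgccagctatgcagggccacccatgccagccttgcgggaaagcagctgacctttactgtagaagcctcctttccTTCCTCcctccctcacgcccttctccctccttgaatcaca
Trem1, chr17:48232489-48232738: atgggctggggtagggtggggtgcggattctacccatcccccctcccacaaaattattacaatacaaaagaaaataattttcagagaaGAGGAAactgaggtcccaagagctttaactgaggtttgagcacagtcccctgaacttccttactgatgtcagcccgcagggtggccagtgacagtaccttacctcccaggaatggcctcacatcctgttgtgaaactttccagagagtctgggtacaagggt
Treml4, chr17:48264045-48264294: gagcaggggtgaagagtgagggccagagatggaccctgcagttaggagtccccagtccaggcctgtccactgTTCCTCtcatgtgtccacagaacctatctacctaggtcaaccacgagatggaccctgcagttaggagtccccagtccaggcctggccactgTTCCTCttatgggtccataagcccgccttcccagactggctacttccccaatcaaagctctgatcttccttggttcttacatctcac

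Trem2 and Trem1 each held 1 match and Treml4 held 2, so genes at both ends of the range held a match. Over windows of 300 bases, from 250 before the start to 50 after it, 28.3% of 32851 RefSeq windows held the letters. Of the 10 genes, 8 had an entry, with 9 windows in all, and 6 of these windows held a match. A match describes the letters and is not a site.

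The adaptors lay far apart, Tyrobp in the upper tier and Hcst among the low genes. Tyrobp stood at 150.3 TPM (1554 counts) in replicate 1 and at 74.3 TPM (696 counts) in replicate 2, a mean of 112 ± 53.7 TPM (SD, n = 2). Replicate 1 was clearly the higher library, and even replicate 2 lay within the upper tier. Hcst had 2.68 and 2.13 TPM, a mean of 2.41 ± 0.389 TPM (SD, n = 2). It rested on 16 and 11 counts, with 95% exact Poisson intervals of 9.15 to 26.0 and 5.49 to 19.7 that overlap and cover counting error only. The second quantification gave 5.97 and 6.38 TPM for Hcst, from 93.0 and 82.0 estimated counts. DAP10 is best known from NK and T cells, whose markers summed to 0.08 and 0.12 TPM over 9 genes, with Klrb1c, Ncr1, Cd3e, Prf1 and Gzma at 0. In the second quantification they summed to 2.23 and 4.98 TPM, most of it Cd3d at 1.76 and 4.205 TPM. Tyrobp (ENSMUSG00000030579.10, chr7:30413760-30417585, plus strand) and Hcst (ENSMUSG00000064109.8, chr7:30417712-30419854, minus strand) stand tail to tail, 126 bases apart. How strand was used in counting is not given in the sources used here, so reads running past either end could be assigned to the other gene.

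Syk, the kinase that docks on the phosphorylated ITAM, had the highest mean of the 10 genes. Replicate 1 had 155.9 TPM and replicate 2 had 126.7 TPM, with 17377 and 12538 counts and a mean of 141 ± 20.6 TPM (SD, n = 2). It ranked 204 among protein-coding genes, 99.1% of which had a lower mean. Syk (ENSMUSG00000021457.14) lies at chr13:52583173-52648792 on the plus strand. Btk, a Tec family kinase that activates phospholipase C gamma, was lower, at 16.9 and 17.3 TPM (1061 and 895 counts). Its libraries nearly coincided there but not in the second quantification, which had 11.4 and 17.6 TPM. Btk (ENSMUSG00000031264.13, chrX:134542336-134583570, minus strand) contains the pseudogene Gm15154 on the other strand, which had 20 and 13 counts. Plcg2, which encodes phospholipase C gamma 2, had 21.2 and 16.7 TPM (2502 and 1675 counts), a mean of 19.0 ± 3.16 TPM (SD, n = 2). Plcg2 (ENSMUSG00000034330.10) lies at chr8:117498291-117635142 on the plus strand and contains the miRNA gene Gm27361 on the other strand, with no expected count. In the second quantification Gm27361 had 9.73 and 8.24 TPM. Inpp5d (ENSMUSG00000026288.14, chr1:87620312-87720507, plus strand) stood at 98.9 TPM (6149 counts) in replicate 1 and at 66.4 TPM (3879 counts) in replicate 2, with a mean of 82.6 ± 22.98 TPM (SD, n = 2). Replicate 1 was the higher library, and the values lay on either side of those of Trem2.

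Some steps in this order were wider than the spread between libraries and some were not. The libraries overlapped for Syk and Tyrobp, for Tyrobp and Inpp5d, and for Inpp5d and Trem2. Within each library, however, Syk stood above Tyrobp and Tyrobp above Inpp5d. Inpp5d stood above Trem2 in replicate 1 (98.9 against 71.4 TPM) and below it in replicate 2 (66.4 against 76.4 TPM). Trem2 lay above Plcg2 in both libraries, 3.89-fold by the means. Plcg2 and Btk overlapped and changed order between the libraries. Btk lay 7.11-fold above Hcst, and Hcst 14.1-fold above Treml4, again without overlap; in the second quantification these folds were 2.35 and 31.5. The order within the upper tier also depended on the table: the second quantification gave 73.7 TPM for Inpp5d, 66.7 for Syk, 62.2 for Tyrobp and 38.3 for Trem2. There Btk, at 14.5 TPM, stood above Plcg2, at 10.02 TPM, and Plcg2 was under 10 TPM in replicate 1, at 9.76.

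Part of the nuclear RNA of these genes was assigned to transcripts that GENCODE annotates as retained introns, which keep intron sequence and are not expected to code for the full protein. Of the 10 genes, 6 have such a transcript: Trem2, Treml4, Hcst, Syk, Btk and Inpp5d. Summed over the genes, these transcripts took 22.6% ± 0.0370 of transcript TPM and 20.0% ± 1.57 of expected counts (SD, n = 2). Over all protein-coding genes, including those with no such transcript, the same shares were 17.2% ± 1.09 and 13.6% ± 0.407. Among the 6143 protein-coding genes with such a transcript and 1 TPM or more in both libraries, the median share of TPM was 29.95% ± 1.02. Syk (34.1%), Inpp5d (32.4%), Hcst (30.6%), Trem2 (29.0%) and Btk (18.8%) lay near or below it, with 29.3% to 57.3% of these genes under each. A share over 50% of TPM in both libraries was seen in 15.4% of the 6143, and in none of the 10 genes; by counts, 12.8% passed, among them Trem2.

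Trem2-203, of 4784 bases, held 25.9% of Trem2 TPM in replicate 1 and 32.2% in replicate 2. By expected counts it held 65.3% and 71.6%, or 2439 and 2755 counts, which are not corrected for length. It was the majority of Trem2 counts in both libraries, and 94.1% of the 6143 genes had a lower retained-intron share of counts, whereas 48.25% had a lower share of TPM, which corrects for length. The coding transcripts Trem2-201 (55.1% and 46.8% of TPM) and Trem2-202 (19.1% and 20.97%) took the rest. Trem2-203 contains intron 1 whole (chr17:48346596-48348456, 1861 bases), together with 1049 bases that are exonic in Trem2-201 and 1874 bases beyond its ends. In Syk, Syk-204 held 28.1% and 22.6% of TPM and includes 1063 bases of intron, part of intron 6. Syk-205 held 8.64% and 8.77% and contains intron 2 whole (chr13:52611253-52612294, 1042 bases). The coding transcripts Syk-201 and Syk-203 held 35.2% and 40.3%, and 25.9% and 26.5%.

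The borders of both whole introns are printed because they show what these transcripts keep. Each line gives bases of GRCm38 on the plus strand as they stand in the unspliced transcript, with the first or last pair of intron bases in capitals.
Trem2-203 intron 1 donor, chr17:48346581-48346620: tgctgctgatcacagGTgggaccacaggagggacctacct
Trem2-203 intron 1 acceptor, chr17:48348432-48348471: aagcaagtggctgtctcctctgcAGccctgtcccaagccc
Syk-205 intron 2 donor, chr13:52611238-52611277: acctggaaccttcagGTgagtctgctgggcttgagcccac
Syk-205 intron 2 acceptor, chr13:52612270-52612309: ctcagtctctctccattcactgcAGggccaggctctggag

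Both introns begin with GT and end with AG, the usual borders of spliced introns. In Inpp5d the shares of TPM and of counts lay far apart. Inpp5d-203, classed as a retained intron, held 37.5% of Inpp5d TPM in replicate 1 and 27.3% in replicate 2, but 2.35% and 1.73% of its counts. It has 364 bases, of which 24, or 6.59%, are intronic in Inpp5d-210 and 340 are exonic. Without transcripts under 400 bases, Inpp5d had a mean of 54.9 TPM, against 73.9 TPM for Trem2. Coding transcripts alone gave 112 TPM for Tyrobp, 92.8 for Syk, 52.3 for Trem2 and 33.5 for Inpp5d. Among its other transcripts, Inpp5d-210 held 23.6% and 17.1% of TPM, the noncoding Inpp5d-206 held 17.5% and 18.6%, and Inpp5d-211 held 9.18% and 10.3%. Inpp5d-208 held 0.17% in replicate 1 and 13.9% in replicate 2, the widest split between libraries of the gene's named transcripts.

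**Figure D3:**
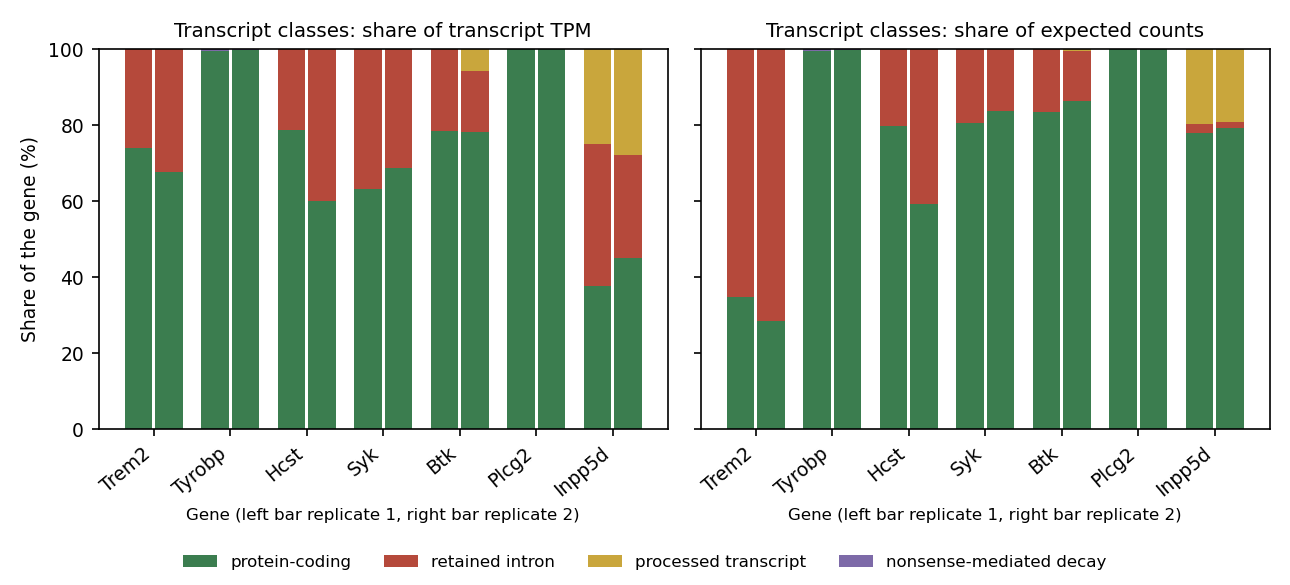
Share (percent) of each gene's transcript TPM and of its expected counts held by coding, retained-intron and other transcript classes, for the 7 genes at 1 TPM or more, with replicate 1 as the left bar and replicate 2 as the right. Trem2 has a mean of 29.0% of TPM but 68.4% of counts in its retained-intron transcript, and Inpp5d has 32.4% of TPM but 2.04% of counts.

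In the remaining genes the coding transcript led. Btk-201 held 77.3% and 78.1% of Btk TPM and the retained-intron transcript Btk-204 held 21.4% and 16.3%, although only 194 of its 1920 bases are intronic. Plcg2 has a single annotated transcript, Plcg2-201. Hcst-201 held 78.7% and 44.6% of Hcst TPM, Hcst-202, a retained-intron transcript, 21.3% and 39.9%, and Hcst-203 0% and 15.5%, all on the few counts given above. Tyrobp-202 held 79.7% and 99.8%, and Tyrobp-201 held 19.8% and 0%. These transcripts share every intron and differ at their ends, with 28 more bases before and 5 more after in Tyrobp-202, so the split between them is uncertain. For Treml4, whose 5 and 6 counts were spread thinly, Treml4-201 held 38.9% and 100% of TPM, Treml4-206 held 50% and 0%, and Treml4-202 held 11.1% and 0%. The 3 counts of Trem1 in replicate 2 all fell to Trem1-201.

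The libraries were then set against each other gene by gene, as log2 of replicate 1 over replicate 2 after TMM scaling, for the 6 of the 10 genes that averaged 100 counts or more. None of the 6 reached 1 in either direction. Of 10198 genes at that depth, 2.01% did, 1.18% higher in replicate 1 and 0.833% higher in replicate 2. Tyrobp came nearest, at 0.90 with a 95% counting interval of 0.77 to 1.03, and 97.3% of genes had a smaller absolute ratio. Its TPM ratio was 1.02 on the log2 scale, and its ratio in the second quantification was 0.66. Inpp5d stood at 0.41 (0.35 to 0.47), Plcg2 at 0.32 (0.23 to 0.41) and Syk at 0.22 (0.18 to 0.25), all higher in replicate 1. Trem2 stood at -0.30 (-0.36 to -0.23) and was thus higher in replicate 2 when all its transcripts were counted. Before scaling, the retained-intron transcript Trem2-203 had 2439 and 2755 counts. The coding Trem2-201 had 974 and 765 counts, and Trem2-202 had 324 and 330. Coding transcripts alone gave 52.9 and 51.8 TPM, so the higher level in replicate 2 was not seen in them. Btk, at -0.01 (-0.14 to 0.12), was the only one of the 6 whose interval included 0. These intervals cover counting error only, and replicate number and starting amount of RNA cannot be told apart. Signs were the same in the second quantification for 5 of the 6, Btk being at 0.03 there. Summed markers also differed between the libraries in the gene-level tables. The 10 macrophage markers summed to 3599 and 2931 TPM, the 11 neutrophil markers to 88.5 and 68.9 TPM, the 7 B cell markers to 17.7 and 6.01 TPM, and the 6 osteoclast markers, of which Ocstamp and Calcr had no count, to 7.10 and 3.22 TPM. The 4 platelet markers were higher in replicate 2, at 13.3 and 17.5 TPM. A single gene carried most of the sums of the other cell types: the rest of the list gave 1.82 and 2.33 TPM without Csf3r, 1.83 and 2.22 TPM without Cd22, 1.12 and 0.75 TPM without Acp5, and 0.80 TPM in both libraries without Pf4. In the second quantification the macrophage sum was instead higher in replicate 2, at 1426 and 1630 TPM. The neutrophil sums (48.8 and 49.5 TPM) and the osteoclast sums (4.37 and 4.36 TPM) nearly coincided there. B cell markers (9.15 and 6.36 TPM) and platelet markers (6.40 and 11.3 TPM) kept their direction. The part of any of these markers in the ratios was not tested.

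**Figure D4:**
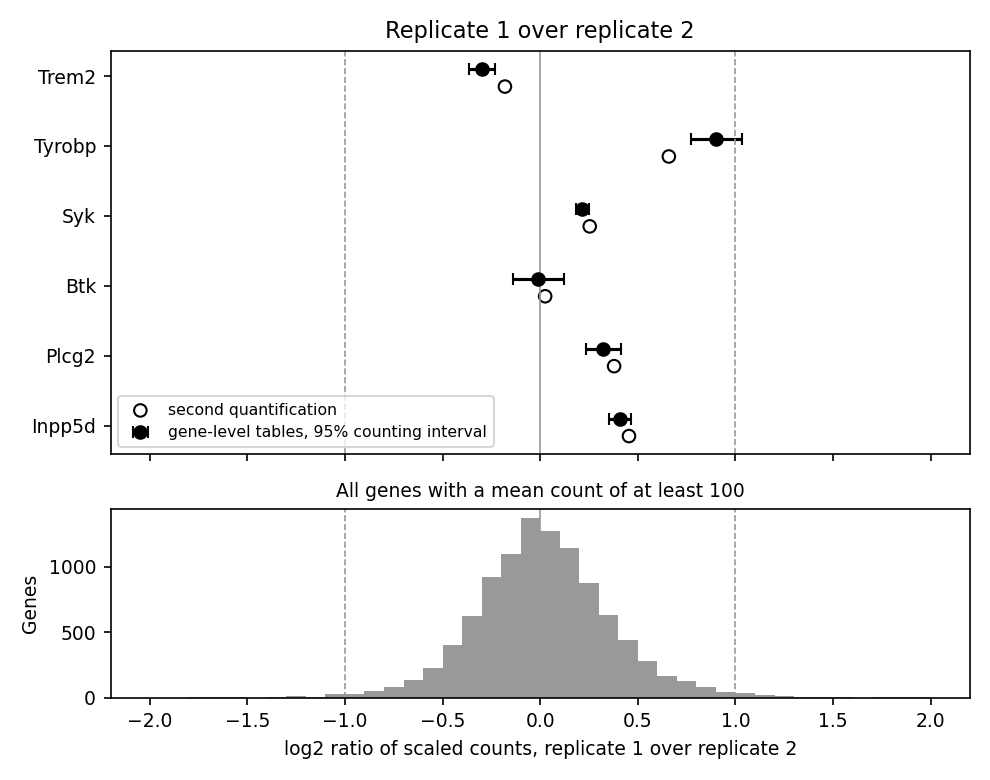
Log2 ratio of replicate 1 over replicate 2 for the 6 genes that averaged 100 counts or more, with 95% counting intervals, beside the distribution over 10198 genes. Tyrobp, at 0.90, is nearest to the threshold of 1, Btk is at -0.01 and Trem2, at -0.30, is the lowest.

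Most of the wider pathway was also present, in lists that were chosen with earlier results of these data known. Of 113 further genes in 6 lists, 98 reached 1 TPM in both libraries (86.7%, against 44.4% of protein-coding genes). At 10 TPM or more in both were 72 of the 113, against 19.7% of protein-coding genes. Zap70 and Lck had no expected count in either. A list of receptors and adaptors around DAP12, DAP10 and the Fc receptor gamma chain had 20 of 24 at 1 TPM or more in both. It also holds relatives, such as Treml1, Treml2 and Klra2, whose pairing with these adaptors was not checked. Fcer1g, the gamma chain and itself an ITAM adaptor, had 441.7 and 411.3 TPM, a mean of 426 ± 21.5 TPM (SD, n = 2), well above Tyrobp in both libraries. Fcgr1, the high-affinity IgG receptor, had 166.5 and 67.2 TPM, and Oscar, an osteoclast-associated receptor, was lowest at 0.02 and 0.05 TPM.

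Of the Src family kinases and proximal adaptors, 18 of 24 were at 1 TPM or more in both libraries. Lat2, a membrane adaptor, had 130.9 and 111.9 TPM, and Lyn, a Src family kinase, 123.8 and 85.7 TPM. Zap70, the relative of Syk that T cells use, and the T cell kinase Lck were at 0 expected counts in both, as were 33.3% of protein-coding genes. In the second quantification Lck had 0.118 and 0.495 TPM and Zap70 0.0549 and 0 TPM. All 13 genes of the phosphoinositide list passed 1 TPM in both. Pik3ap1, an adaptor for phosphoinositide 3-kinase, had 216.8 and 172.0 TPM, Pik3r5, a regulatory subunit, 69.9 and 74.5 TPM, and the lipid phosphatase gene Inpp4b was lowest at 2.09 and 2.17 TPM. Inpp5d thus lay below Pik3ap1 in both libraries. Of the effectors after phospholipase C and SYK, 21 of 23 passed. The protein kinase C gene Prkcd was highest at 159.2 and 131.1 TPM, the focal adhesion kinase relative Ptk2b had 83.9 and 81.3 TPM, and Prkca had the lowest mean, from 0.57 and 0.64 TPM.

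In the list of inhibitory receptors and tyrosine phosphatases, 17 of 19 genes passed 1 TPM in both libraries. It also holds Siglec1 and phosphatases such as Ptprc, so not every gene in it stands for inhibition. Lilrb4a, an inhibitory immunoglobulin-like receptor, had 634.4 and 1126 TPM, and Sirpa, the receptor for CD47, had 878.6 and 635.5 TPM, whereas Siglecf had 0.04 and 0.16 TPM. Of a list of genes for cleavage and ligands of TREM2, 9 of 10 passed. The list also holds Ctsd and Grn, whose part in either role was not checked. The lysosomal protease gene Ctsd had 1695 and 1315 TPM, the progranulin gene Grn 1119 and 743.6 TPM, and Clu, which encodes an apolipoprotein that TREM2 binds, 0.11 and 0 TPM. The median of log2(TPM + 0.1) was 4.17 ± 0.11 for the 10 genes (SD, n = 2). It was higher for the list of inhibitory receptors and phosphatases (6.07 ± 0.10), the TREM2 list (5.45 ± 0.17) and the phosphoinositide list (4.6 ± 0.03). The effectors (4.003 ± 0.13), the Src family kinases and adaptors (3.93 ± 0.22) and the partner receptors with their relatives (3.15 ± 0.24) were lower. For the effectors and the Src family list, the difference was no more than the sum of the SDs. These SDs are between libraries and leave out the spread over the genes of a list. Whether the lists differ beyond that spread was not tested.

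**Figure D5:**
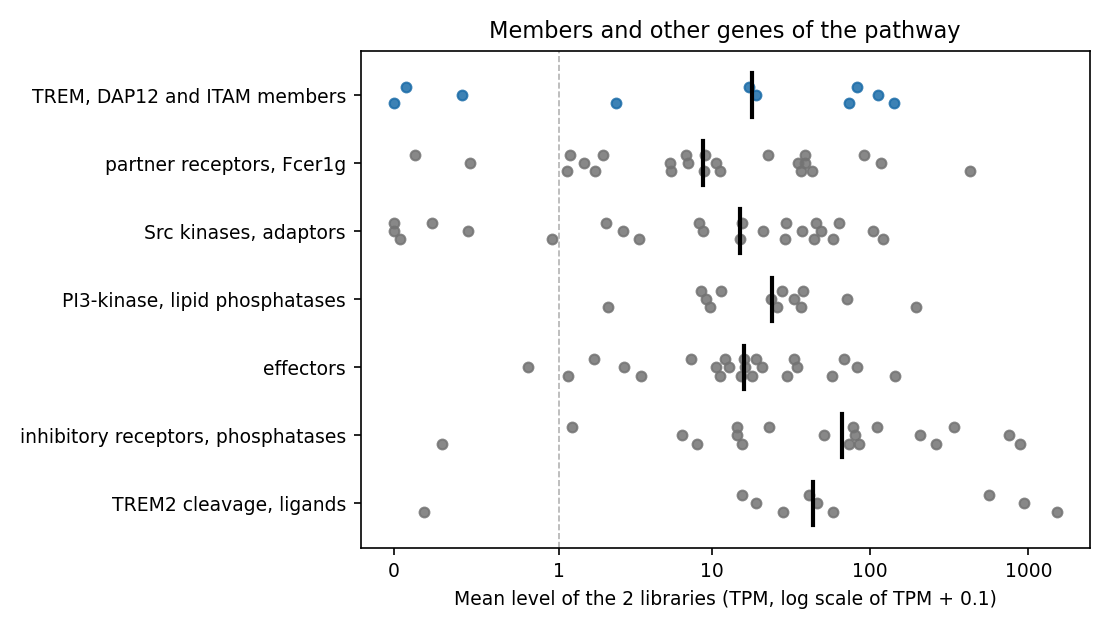
Mean TPM of both libraries (log scale of TPM + 0.1) for the 10 genes, in blue, and for every matched gene of the 6 pathway lists, in grey, with a black bar at each median. The list of inhibitory receptors and phosphatases has the highest median, and Zap70 and Lck, with no expected count, sit at the bottom of theirs.

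Between the libraries, 8 of the 96 pathway genes at the same depth had a log2 ratio of 1 or more in size, beside 2.01% of all genes. They are named here after their values were seen. Fcgr1 (1.03), Siglec1 (1.20), Fcgr4 (1.28) and Apoe (1.58) were higher in replicate 1. Inpp4b (-1.11), Clec4e (-1.20), Clec4n (-1.29) and Clec5a (-1.38) were higher in replicate 2, although the TPM of Inpp4b hardly differed between the libraries. In the second quantification Fcgr1 (0.998) and Inpp4b (-0.99) fell short of 1 in size. Clec5a encodes a DAP12-paired lectin receptor, and Clec4e and Clec4n encode receptors that pair with the gamma chain, so Clec5a and its adaptor gene Tyrobp lay on opposite sides of 0. Apoe, which encodes a TREM2 ligand, stood at 865.6 TPM in replicate 1 and at 269.3 TPM in replicate 2.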

How the data were processed

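Nucleoplasmic RNA of 1 group was measured in 2 libraries, grouped by the replicate number in the labels. Per the deposited notes beside the files, reads were mapped to mm10 with GENCODE mouse release 21. The deposited gene-level and transcript-level tables hold expected counts and TPM made by the authors from transcriptome alignments. A further deposited table, the second quantification, holds estimated counts and TPM made straight from the reads. The program, its version and the strand setting were not given in the sources used here.

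The 10 genes, the pathway and marker lists and the named genes (all members, the 2 highest and the lowest of each pathway list, the highest of each marker list, with transcripts at 10% or more of a gene's TPM in either library) were chosen with earlier results of these data known. Treml6, Clec6a and Pira6 were not matched by symbol. A further item that the naming rule took is not reported here. Entries that name no annotated gene (26345, with 1.01% and 0.336% of counts) were left out. A value was missing for 86 genes in the second quantification, whose results leave them out. Rounded expected counts gave log2 ratios with TMM factors (edgeR 4.0.16, R 4.3.3; 14892 genes kept by filterByExpr; prior count 0.5). Setting 1 library against 1 gives no p-value. DESeq2 1.42.0 size factors, library totals, other count minimums, another pseudocount, the second quantification and single libraries were tried as alternatives. Intervals are exact at 95%, and a count of 0 was read as a limit of 3 counts. The ratio step was tested on simulated counts. Other steps ran in Python 3.11.15 with pandas 2.3.3, numpy 2.4.6 and scipy 1.17.1.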

Additional observations from a re-analysis of the deposited data

Results flagged for a closer look

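Several transcripts had no expected count in a library but had estimated counts in the second quantification there, above the limit of 3 counts that a 0 allows. Trem2-204 had 131 estimated counts in replicate 1 and 96.6 in replicate 2. Inpp5d-205 had 145 in replicate 1 and 120.3 in replicate 2. Btk-202 had 180.4 in replicate 2, where its expected count was 0. Where the expected count was 0 in replicate 1, estimated counts there were as follows. Btk-205 had 40.9, Inpp5d-202 had 33.9, Inpp5d-207 had 32.7, Hcst-203 had 17.6, Btk-203 had 9.56 and Trem1-201 had 7.002. Treml4-204 had 4.32 in replicate 2. Btk-205, Inpp5d-207, Hcst-203, Btk-203 and Trem1-201 also had estimated counts in replicate 2, from 11.9 for Trem1-201 to 89.2 for Btk-205.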

How the results depend on the processing

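The median of log2(TPM + 0.1) over the 10 genes, 4.17, became 3.59 in the second quantification, 5.98 with TPM rescaled over protein-coding genes and 4.0 with coding transcripts only. Its difference from all protein-coding genes, 5.08, became 3.72, 5.29 and 5.43 in that order, 3.73 with a pseudocount of 1 TPM, and 0.96 against only those genes at 1 TPM or more in both libraries. The retained-intron share of the summed genes, 22.6%, became 24.5% in the second quantification and 20.0% by counts. With no minimum count, 1 gene was apart, Trem1, with 0 and 3 counts, as were 5813 of all 55536 genes. Under library totals, DESeq2 size factors, the second quantification and a minimum of 50, none of the 6 genes compared was apart. The second quantification put 5 of the 10 genes, in place of 6, at 10 TPM in both libraries, without Plcg2. With either library alone, 7 of the 10 genes were at 1 TPM, 6 at 10 TPM and 100 to 101 of the pathway genes at 1 TPM; the median was 4.10 to 4.25, its difference 4.98 to 5.19 and the retained-intron share 22.6% to 22.7%. The choices of coding or longer transcripts and of counts for shares were made after seeing the data. Low counts limit Trem1, Trem3, Treml4 and Hcst. No paired analysis was possible because the labels give 1 group.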
